A study of Vitis vinifera with 36 samples.

Results

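The transcripts described here were the 100 genes whose FPKM values varied least over the 36 RNA-seq libraries of a double cropping study of grape berries. FPKM is the number of reads of a gene relative to the length of its transcript and to the reads of the whole library. Of 28441 genes listed in at least 1 library, 7442 had a mean of 10 to 100 FPKM, with a gene without a row in a library taken as 0. From these, 90 genes on the study's lists of flavonoid and hormone genes were left out, and the 7352 genes that remained are called the band. The 100 genes of the band with the lowest SD of log2(FPKM + 1) over the libraries were taken, so their small spread was what chose them and is given as a description, with no test.

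The berries were those of “Riesling”, a white cultivar, and “CS” (Cabernet Sauvignon), a red cultivar, grown in southern China in 2014. The same vines, grafted on SO4 rootstock under a rain shelter, were pruned and forced with hydrogen cyanamide for the summer crop and again for the winter crop. For the winter crop they were also defoliated by hand, and the compound was put only at the terminal bud and near the pruning wound. Whole pericarp of deseeded berries was sampled at 3 stages of the Eichhorn-Lorenz scale, E-L 35, E-L 36 and finally E-L 38, which run from the onset of veraison, when berries soften and colour, to harvest. The 12 conditions had 3 replicates each, and RNA of 50 berries went into each replicate. The tissue is a mixture of skin and flesh, so a steady level may hide changes within a cell type, and fewer cells of a type cannot be told apart from less RNA per cell.

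A reference transcript is a gene whose level is taken as fixed, so that the level of a target can be divided by it, as in quantitative PCR. In plants, genes of the cytoskeleton, of protein turnover, of translation and of central metabolism have usually served this purpose, and none is steady in every tissue. Ripening is a hard test for such genes, since the berry then shifts from growth to the storage of sugars and phenolics and a few very abundant transcripts take up a changing part of the reads. A value relative to library size of a gene with a fixed number of molecules falls when other transcripts take up more of the library, so steadiness is always relative to a scaling. The files did not pair the identifiers of the 100 genes with names or products, and a reference table of grape genes held 0 of the identifiers. The genes are therefore given by identifier only, and which of them encode a commonly used reference protein is not known here.

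The expected counts of the libraries summed to 8367013 to 28686956 reads, with a median of 10966200. UFGT, the anthocyanin glucosyltransferase, separated the cultivars with 7.10 to 10.8 FPKM in the 18 “Riesling” libraries and 22.0 to 130 FPKM in the 18 “CS” libraries. The colour regulators overlapped, with 0 to 37.2 FPKM in “Riesling” and 8.83 to 76.7 FPKM in “CS” for the sum of 2 MYBA1 genes, 0.33 to 91.5 and 21.9 to 161 FPKM for MYBA2, and 0 to 22.4 and 2.24 to 63.6 FPKM for MYBA3. In the counts of called genes, the “Riesling” summer libraries labelled E-L 38 did not follow the order of the labels. In these berries 2757 of 20183 genes passed an adjusted p of 0.01 in edgeR at E-L 38 against E-L 35, fewer than the 5388 that did so at E-L 36 against E-L 35, whereas in the other 3 series the count at E-L 38 was the larger, with 4044 to 9961 against 2744 to 5198. The libraries labelled E-L 38 held 10348382 to 10982724 reads, and those at E-L 36 held 15813823 to 16490014. The part of depth in these counts, and whether the label is right, was not tested. Without the 3 libraries labelled E-L 38 the same rule took 85 of the 100 genes again.

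The 100 genes had mean levels of 10.0 to 98.7 FPKM with a median of 20.2, against a median of 22.5 in the band. Of them 49 had a mean of 10 to 20 FPKM, 38 had 20 to 50 FPKM and 13 had more, against 43.3%, 41.2% and 15.5% of the band. Their SD was 0.101 to 0.155 with a median of 0.142, and the median of the band was 0.365. In linear terms, the highest library of a member was 1.37 to 1.87 times its lowest, with a median of 1.54, against a median of 2.89 in the band. All 100 stayed within 2-fold over the 36 libraries, as did 16.9% of the band. The limit fell in a dense part of the distribution. VIT_201s0026g00250 and VIT_205s0062g01180 were the last ones inside with an SD of 0.1549 and 0.1550, and VIT_213s0067g03060 and VIT_211s0016g00720 the first ones outside with 0.1551 and 0.1553.

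**Figure D1:**
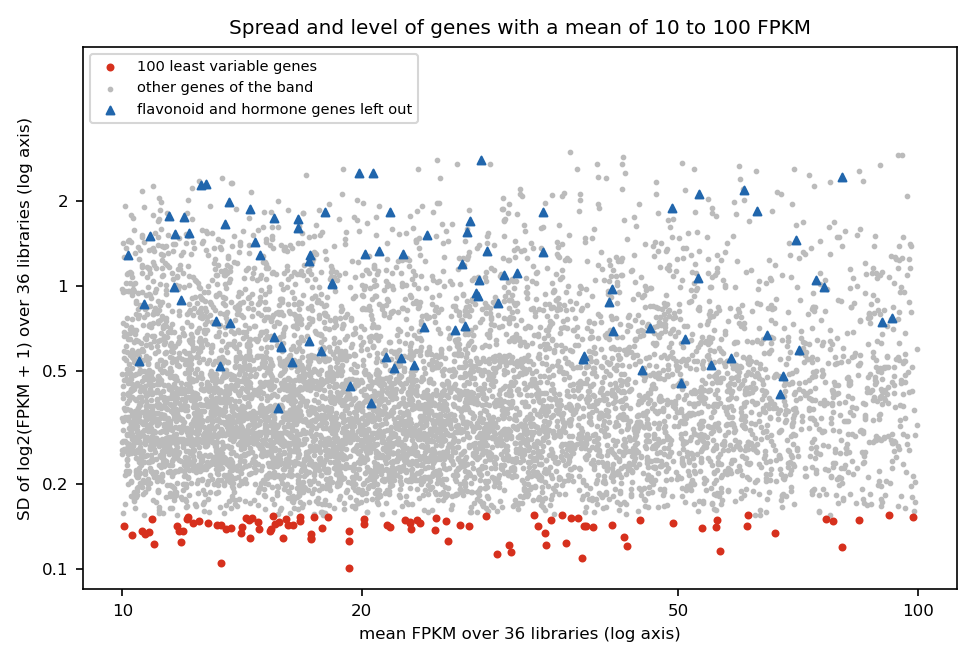
SD of log2(FPKM + 1) over 36 libraries against mean FPKM, both on log axes, for the 100 least variable genes (red), the other genes of the band (grey) and the flavonoid and hormone genes that were left out (blue triangles). The red points fill the bottom edge from 10.0 to 98.7 FPKM below an SD of 0.155, and the lowest triangle is at 0.372.

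VIT_207s0130g00270 had the lowest SD of all, 0.101, around a mean of 19.3 FPKM. In “Riesling” winter berries it had 20.5, 19.0 and 20.4 FPKM at E-L 35, 20.9, 21.1 and 18.6 at E-L 36, then 19.4, 22.1 and 19.9 at E-L 38. In “Riesling” summer berries it had 19.0, 16.9 and 18.6 FPKM at E-L 35, 20.3, 22.7 and 19.1 at E-L 36, then 18.7, 19.3 and 16.3 at E-L 38. Both its highest and its lowest library, 22.7 and 16.3 FPKM, thus came from “Riesling” summer berries. In “CS” winter berries it had 16.7, 17.9 and 19.1 FPKM at E-L 35, 17.9, 18.3 and 19.0 at E-L 36, then 17.4, 21.5 and 18.9 at E-L 38. Summer berries of “CS” had 19.8, 19.7 and 18.3 FPKM at E-L 35, 19.2, 19.0 and 20.6 at E-L 36, then 19.5, 18.8 and 20.7 at E-L 38. The range of each condition overlapped with those of most others, and the largest ratio between 2 condition means was 1.16. The gene lies on chromosome 7 from 20563814 to 20582943 on the plus strand of the grapevine genome 12X V2, in 11 exons, with 2457 coding bases.

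The next in order was VIT_207s0129g01020 on the same chromosome, from 16141294 to 16176373, with a mean of 13.3 FPKM and an SD of 0.105. Its lowest library was the third replicate of “Riesling” summer berries at E-L 35 with 11.5 FPKM, and its highest the second E-L 38 replicate of the “CS” winter crop with 16.1 FPKM. The spread between its replicates, 0.104 on the log2 scale, was 1.16 times that expected from counting reads alone, and replicates held 66.6% of its sum of squares, with the rest between conditions. By contrast, VIT_211s0065g00140, with a mean of 37.8 FPKM and an SD of 0.110, moved with the condition. It had 37.6, 42.7 and 46.1 FPKM in “Riesling” winter berries at E-L 35 and 41.3, 44.1 and 43.5 FPKM in E-L 35 berries of the “CS” winter crop. At E-L 38 the winter values were 32.0, 35.0 and 36.0 FPKM in “Riesling” and 34.6, 38.9 and 38.2 FPKM in “CS”, so in both cultivars the winter libraries at E-L 38 lay below those at E-L 35 without overlap.

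VIT_214s0128g00400 had a mean of 29.6 FPKM and an SD of 0.113. Its highest condition was “Riesling” winter at E-L 35 with 34.1, 35.0 and 32.4 FPKM, and its lowest “CS” summer at E-L 38 with 27.6, 26.0 and 27.4 FPKM. VIT_203s0038g02940, with a mean of 30.9 FPKM and an SD of 0.115, was high in a pair of conditions that share neither cultivar, season nor stage. It had 35.7, 36.5 and 33.7 FPKM in “Riesling” summer berries at E-L 36 and 35.6, 37.5 and 33.1 FPKM in E-L 38 berries of the “CS” winter crop, and 26.8 to 32.6 FPKM in the other 30 libraries. VIT_211s0016g05120 had a mean of 56.4 FPKM and an SD of 0.116, with 62.0, 67.7 and 65.1 FPKM in E-L 38 berries of the “CS” winter crop and 51.4, 47.2 and 45.1 FPKM in “Riesling” winter berries at E-L 36. These libraries did not overlap, and the ratio of the condition means was 1.36.

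Of the other 4 genes among the 10 least variable, VIT_217s0000g03040 was the most abundant, with a mean of 80.3 FPKM and a range of 64.5 to 91.0 FPKM. It is a gene of 1 exon, and the spread between its replicates was 3.01 times that expected from counting. VIT_202s0025g02520 had a mean of 43.1 FPKM and stood out only in “Riesling” summer berries at E-L 36 with 51.8, 54.2 and 51.5 FPKM, above its 36.4 to 47.0 FPKM in the other 33 libraries. VIT_218s0001g11700, a gene of 25 exons with a mean of 30.7 FPKM, was also highest there with 37.2, 37.1 and 32.8 FPKM, and lowest in E-L 36 berries of the “CS” winter crop with 28.1, 27.0 and 28.2 FPKM. VIT_217s0000g00390, with a mean of 34.1 FPKM, shared both of these conditions, with 39.1, 37.4 and 42.2 FPKM in “Riesling” summer berries and 31.5, 31.2 and 30.2 FPKM in “CS” winter berries. With VIT_207s0130g00270, 4 of the 10 least variable genes thus had their highest mean in “Riesling” summer berries at E-L 36, as did 12.5% of the band. The genes of the band also lay above their own means there, by a median of 0.15 on the log2 scale of FPKM as deposited.

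**Figure D2:**
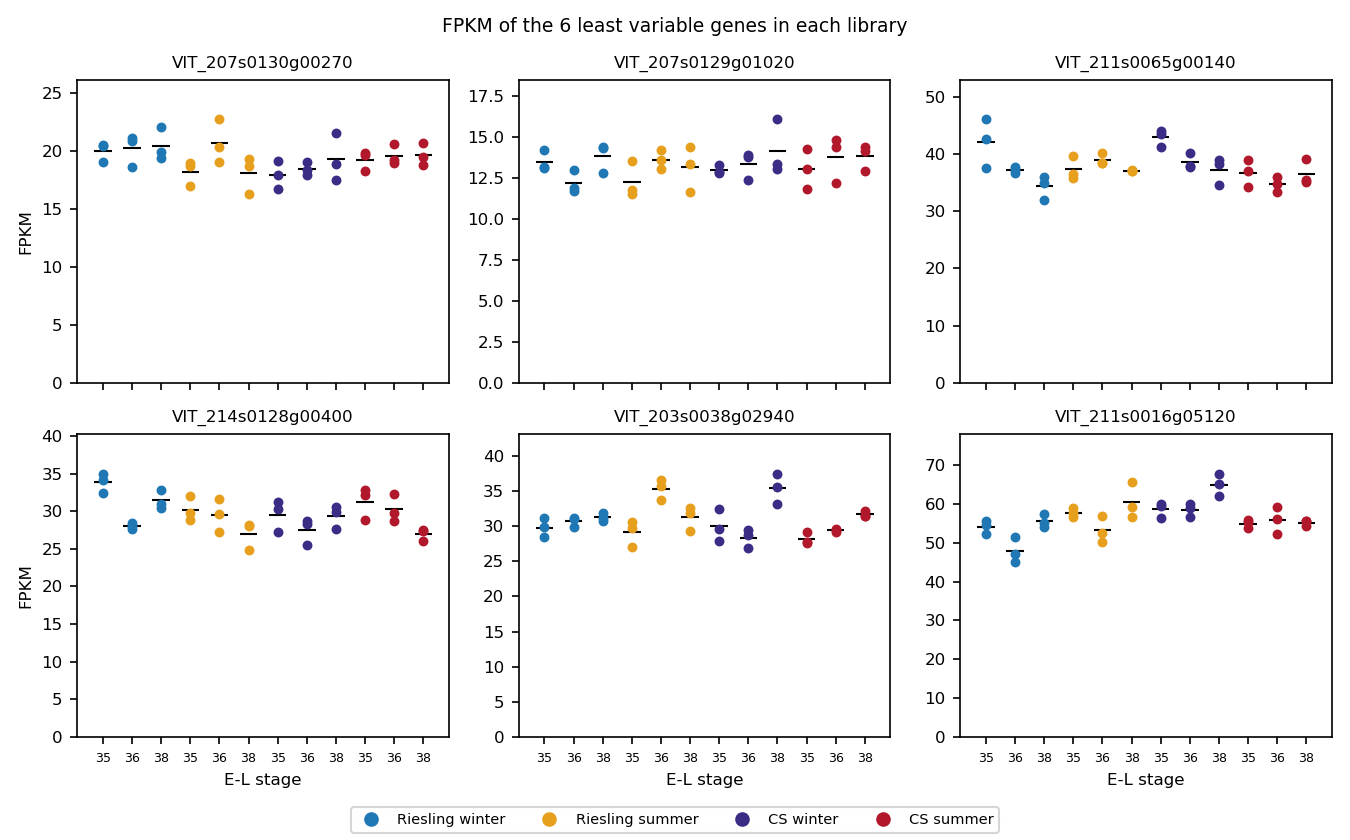
FPKM of the 6 least variable genes in each of 36 libraries (points, 3 replicates per condition) with condition means (bars), by E-L stage within each crop, on axes that start at 0. VIT_207s0130g00270 lies between 16.3 and 22.7 FPKM, and VIT_203s0038g02940 shows its raised conditions in “Riesling” summer berries at E-L 36 and “CS” winter berries at E-L 38.

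The 100 genes were long and of many exons. Their deposited transcript length was 835 to 6860 bases with a median of 2122, against 1859 in the band, and they had a median of 8 exons against 5. The median coding length was 1227 bases against 1032, and the medians of the untranslated regions were also larger, 318 against 237 bases at the 5′ end and 581 against 511 bases at the 3′ end. Lengths under 1000 bases were found in 5 of the 100 against 16.5% of the band, and lengths of 3000 bases or more in 25 against 17.5%. Genes of a single exon made up 4 of the 100 against 8.80%. The shortest, VIT_204s0023g02620 on chromosome 4, had 6 exons in 835 bases and 31.4 to 50.7 FPKM. The longest, VIT_208s0007g01790 on chromosome 8, had 6860 bases, of which 3949 were 3′ untranslated, and only 9.56 to 14.2 FPKM. At the same FPKM a longer transcript is counted with more reads, and the part of length in the choice of the genes was not tested. Over the band the rank correlation of the SD was -0.21 with length, -0.15 with mean expected count, -0.34 with the number of exons and 0.01 with mean FPKM, across 7352 genes that share the same libraries.

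Every member was counted in every library, with mean expected counts of 139 to 3802 and none below 83. Reads that fit several places give fractional counts, and 72 of the 100 had none in any library, close to 70.5% of the band. A fractional count in every library was found in 6, against 9.13% of the band. Another gene model overlapped 13 of the 100, close to 11.9% of the band. Their values are uncertain where the counting did not use the strand, which is not stated. The members lay on all 19 chromosomes, from 1 on chromosome 15 to 9 on chromosome 3, which held 244 and 308 genes of the band. Chromosome 18 held 3 members and 517 genes of the band. On unplaced or random scaffolds lay 9 members, against 7.60% of the band.

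To describe what variation was left, the sum of squares of log2(FPKM + 1) of each gene was split into stage, cultivar, season, their interactions and the part between replicates. The parts rest on unequal numbers of independent differences, the most in replicates and the fewest in cultivar and season. A part is therefore to be compared with the same part in the band and not with the other parts. Replicates held a median of 33.8% in the 100 genes against 11.8% in the band, and were the largest part in 51 of them against 5.30%. Stage held a median of 9.71% against 16.1%, cultivar 3.14% against 9.41%, and season 4.17% against 11.6%. Interactions are the differences between conditions that are left after stage, cultivar and season, such as changes of unequal size or opposite direction. They held 34.0% against 31.0% and were the largest part in 40 members, close to the 41.7% of the band. Stage was the largest part in 6 members, cultivar in 2 and season in 1, against 17.2%, 17.5% and 18.3% of the band. The SD between replicates had a median of 0.099 against 0.149 in the band, and that of the condition means 0.116 against 0.350, so the 100 genes were lower in both and mainly in the second. Counting of reads alone accounts for a median of 16.6% of their variance, between 2.48% and 72.0%, against 2.90% in the band. These splits come from the values that chose the genes and were not tested.

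**Figure D3:**
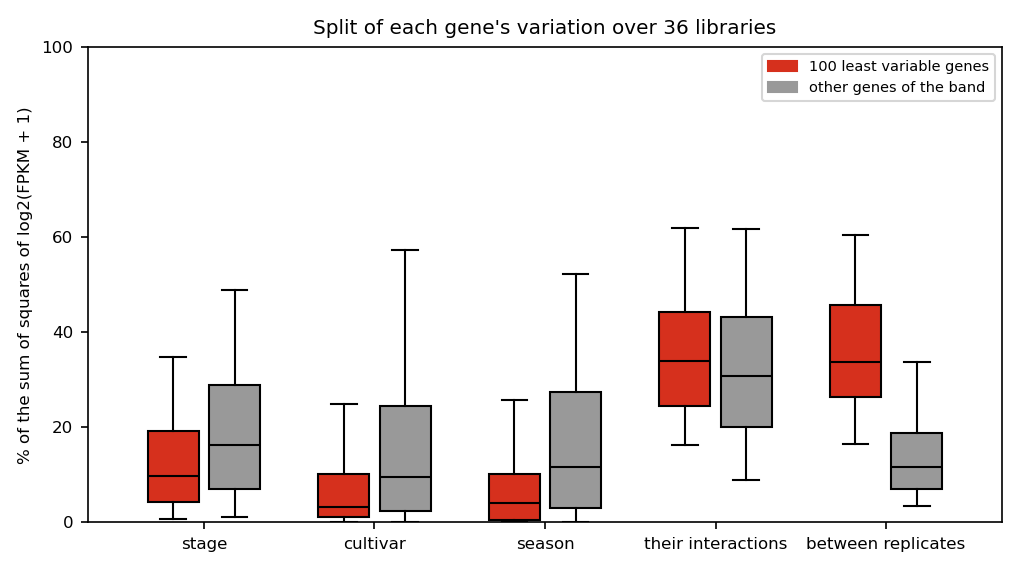
Percent of each gene's sum of squares of log2(FPKM + 1) that fell to stage, cultivar, season, their interactions and differences between replicates, for the 100 least variable genes (red) and the other genes of the band (grey). Boxes show quartiles and medians and whiskers the 5th to 95th percentile, and the replicate part is higher in red, with a median of 33.8%.

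Some libraries and conditions held the extremes more often than others. The third replicate of “Riesling” summer berries at E-L 38 was the lowest library of 20 members, against 8.26% of the band, and the first E-L 35 replicate of the “CS” winter crop of 9, against 3.77%. The second E-L 38 replicate of the “CS” winter crop was the highest library of 10 members, against 5.41%. Among conditions, “CS” winter at E-L 38 had the highest mean in 21 members and “Riesling” summer at E-L 36 in 19, against 15.8% and 12.5% of the band. “Riesling” winter at E-L 36 had the lowest mean in 18 and “CS” winter at E-L 35 in 17, against 6.92% and 9.67% of the band. Replicates were closest in “CS” summer berries at E-L 36, with a median SD of 0.055, and farthest apart in “Riesling” summer berries, with 0.124 in the libraries labelled E-L 38 and 0.114 at E-L 35. The medians of the band there were 0.080, 0.146 and 0.197, of which the first and the last were also its lowest and highest. Within “Riesling” the 100 genes had a median SD of 0.148 and within “CS” of 0.123, against 0.345 and 0.313 in the band. Within winter and summer libraries it was 0.140 and 0.133, against 0.358 and 0.287 in the band.

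The flavonoid and hormone genes of the same levels give a measure of what the 100 genes are set against. The 90 of them with 10 to 100 FPKM had SDs of 0.372 to 2.79 with a median of 1.02, and a median ratio of 12.2 between the highest and the lowest library. None would have entered the 100 had they been kept. The steadiest was MYBC2-L1 (VIT_201s0011g04760), a MYB repressor of the pathway, with 10.4 to 28.2 FPKM, followed by MYC1 (VIT_207s0104g00090), the bHLH partner of flavonoid MYB factors, with 9.45 to 28.4 FPKM and an SD of 0.387. Their ranks among the genes of the band would have been 3774 and 3973.

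Whether the 100 genes look flat depends on how libraries are made comparable. FPKM divides by library totals, while TMM rescales each library so that the typical gene does not change, and the TMM factors of the 36 libraries ran from -0.21 to 0.20 on the log2 scale with an SD of 0.098. That spread is more than the 0.039 by which the geometric mean of the 100 genes varied as deposited, and less than the 0.101 to 0.155 of single members. On FPKM as deposited, the median deviation of the 100 genes from their own means was between -0.051 in “Riesling” winter berries at E-L 36 and 0.060 in “Riesling” summer berries at E-L 36, as means of 3 libraries. On TMM-scaled FPKM it was -0.13 in “Riesling” summer berries at E-L 35, -0.12 in “Riesling” winter berries at E-L 35 and 0.15 in E-L 36 berries of the “CS” winter crop. The TMM factors of these conditions were 0.13, 0.13 and -0.19, of nearly the same size and opposite sign. Over the 36 libraries the median deviation on the TMM scale and the TMM factor had a Pearson r of -0.91, which describes a shared term, since the factor enters both. The median SD of the members was 0.155 on the TMM scale against 0.142 as deposited, and that of the band 0.360 against 0.365.

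**Figure D4:**
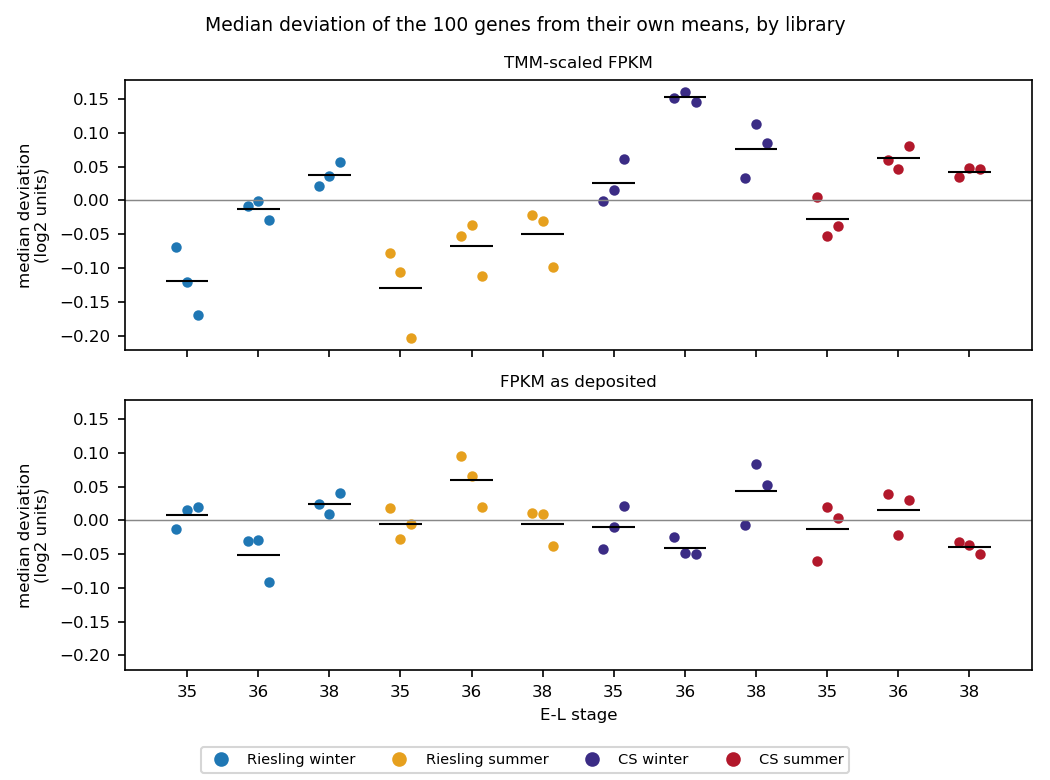
Median over the 100 genes of the deviation of log2 values from each gene's own mean, for 36 libraries (points, 3 replicates per condition) with condition means (bars), on TMM-scaled FPKM (top) and FPKM as deposited (bottom). On the TMM scale “CS” winter berries at E-L 36 sit at 0.15 and “Riesling” berries of both crops at E-L 35 near -0.12 and -0.13, while as deposited all condition means lie between -0.051 and 0.060.

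The residual change with season, cultivar and stage was then read from a single edgeR quasi-likelihood fit of the 12 conditions with TMM, averaged over the pairs of each kind, with p-values adjusted over the 20183 genes tested, which included all 100. The limit for a call was an adjusted p of 0.01. Because low variation over these same libraries chose the genes, the counts that follow describe them and support nothing. No member was called with a change of 2-fold or more in any of the 6 averaged or 24 pair comparisons, in edgeR, DESeq2 or limma, and the extremes of the members over the pairs in edgeR were log2 fold changes of -0.65 and 0.62. Of all genes tested, edgeR called 3.4% to 15.4% with such a change in the averages and 2.41% to 27.9% in the pairs. The shares were 4.45% to 16.2% and 3.45% to 28.6% in DESeq2, and 1.93% to 7.53% and 1.71% to 20.8% in limma on log2(FPKM + 1). At an unadjusted p of at most 0.05, 50 members passed for season, 64 for cultivar and 51 for E-L 38 against E-L 35, where 66.9%, 67.8% and 65.6% of all genes did.

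Between winter and summer berries, 23 members were called higher and 2 lower, 25 in all, where 54.9% of all genes tested were called, and 11.1% with a change of 2-fold or more. Of the 20183 genes tested, edgeR called 5256 higher and 5815 lower. DESeq2 gave 34 members higher and 2 lower, where it called 56.6%, with 5680 genes higher and 5737 lower. The median log2 fold change was 0.06, against -0.02 over all genes tested. The largest was that of VIT_203s0038g03050, which had 20.8, 23.8 and 28.2 FPKM as lowest, median and highest of 18 winter libraries and 17.2, 21.4 and 24.4 FPKM in 18 summer libraries (log2 fold change 0.21 ± 0.04 SE, adjusted p = 5.383e-05 in edgeR). The ranges overlapped in this gene, as they did in VIT_208s0007g08110, with 31.0, 36.1 and 44.2 FPKM in winter libraries and 28.4, 32.4 and 39.4 FPKM in summer libraries (0.21 ± 0.03, adjusted p = 5.593e-07 in edgeR). The 2 members called lower in winter with TMM were VIT_205s0062g01180 and VIT_203s0017g01640. The first had 27.1, 33.5 and 37.3 FPKM in winter libraries and 32.0, 38.4 and 45.5 FPKM in summer libraries (-0.13 ± 0.03, adjusted p = 0.00096 in edgeR). The second had 18.9, 22.0 and 24.7 FPKM in winter libraries and 21.2, 24.6 and 29.3 FPKM in summer libraries (-0.11 ± 0.03, adjusted p = 0.0040 in edgeR).

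Between “Riesling” and “CS”, 43 members were called lower in “Riesling” and 0 higher, where 55.2% of all genes tested were called in either direction and 27.8% lower. DESeq2 gave 41 lower and 0 higher, where it called 57%, with 5561 of 20183 genes lower and 5946 higher. The median log2 fold change was -0.10 in the members and 0.01 over all genes tested. VIT_208s0056g00690 had 70.8, 85.4 and 106 FPKM as lowest, median and highest of the “Riesling” libraries and 84.2, 94.6 and 116 FPKM in the “CS” libraries (-0.28 ± 0.04, adjusted p = 8.076e-07 in edgeR). VIT_203s0038g00290 had 54.1, 63.4 and 70.2 FPKM in “Riesling” libraries and 59.4, 68.9 and 81.6 FPKM in “CS” libraries (-0.28 ± 0.03, adjusted p = 2.599e-09 in edgeR). With library totals in place of TMM they had -0.15 and -0.16, a smaller difference of the same sign (adjusted p = 0.0017 and 5.648e-05 in edgeR). At the other end the scale decided the call. VIT_219s0014g05100, the most abundant of the 100, had 89.8, 103 and 140 FPKM in “Riesling” libraries and 78.8, 91.5 and 101 FPKM in “CS” libraries, yet its log2 fold change with TMM was 0.06 ± 0.03 (adjusted p = 0.13 in edgeR). With library totals it was 0.18 (adjusted p = 2.384e-05 in edgeR). VIT_200s0585g00020, with 12.1, 14.2 and 16.6 FPKM in “Riesling” libraries and 10.98, 12.4 and 14.5 FPKM in “CS” libraries, likewise had 0.05 with TMM and 0.18 with library totals (adjusted p = 0.11 and 2.561e-05 in edgeR).

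Between E-L 38 and E-L 35, 35 members were called higher at E-L 38 and 0 lower, where 52.7% of all genes tested were called in either direction and 24.6% higher. DESeq2 gave 33 higher and 0 lower, where it called 54.3%, with 5032 of 20183 genes higher and 5936 lower. A call with a change of 2-fold or more was made in 14% of all genes. VIT_203s0038g01470 had 75.9, 85.8 and 97.3 FPKM as lowest, median and highest of 12 libraries at E-L 38 and 65.6, 71.5 and 85.1 FPKM in 12 libraries at E-L 35 (0.32 ± 0.04, adjusted p = 3.188e-07 in edgeR). VIT_209s0002g01740 had 51.6, 59.8 and 66.7 FPKM at E-L 38 and 46.7, 50.7 and 56.4 FPKM at E-L 35 (0.30 ± 0.03, adjusted p = 8.556e-09 in edgeR). These were the largest averaged changes between these stages among the 100, and stage took 46.6% and 42.6% of their sums of squares. The highest share of stage, 47.0%, was that of VIT_201s0010g02760. At the other end VIT_200s0194g00130, with 11.7, 12.96 and 15.9 FPKM at E-L 38 and 12.9, 14.3 and 17.4 FPKM at E-L 35, and VIT_205s0102g00100, with 28.9, 36.5 and 38.1 FPKM at E-L 38 and 34.3, 39.5 and 46.7 FPKM at E-L 35, had -0.10 and -0.09 with TMM without a call (adjusted p = 0.075 and 0.058 in edgeR). With each library left out in turn they had -0.12 to -0.07 and -0.10 to -0.06. Both were weakest without the third replicate of the “Riesling” summer libraries labelled E-L 38. With library totals they had -0.18 and -0.17 (adjusted p = 0.0023 and 0.00072 in edgeR). Between E-L 36 and E-L 35, 27 members were called higher and 0 lower. Of the 20183 genes tested 37.1% were called, 3548 higher and 3937 lower, and 7.07% changed 2-fold or more. DESeq2 gave 25 members higher and 1 lower, where it called 39.4%, with 3554 genes higher and 4403 lower. Between E-L 38 and E-L 36, 9 members were higher and 9 lower in edgeR. There 34.4% of all genes tested were called, 3128 higher and 3818 lower, and 5.61% changed 2-fold or more.

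With library totals in place of TMM, the calls no longer lay in 1 direction. Season then called 6 members higher and 12 lower in winter, cultivar 11 higher and 8 lower in “Riesling”, and stage 10 higher and 6 lower at E-L 38, where 55.3%, 57.4% and 51.5% of all genes tested were called. Of the 20183 genes, season called 4400 higher and 6758 lower, cultivar 7665 higher and 3913 lower, and stage 3882 higher and 6517 lower. The median log2 fold change of the members moved to 0.00, 0.02 and 0.01, and that of all genes tested to -0.08, 0.13 and -0.10. Set against the median of all genes, the members lay 0.08 higher for season, 0.11 lower for cultivar and 0.11 higher for stage on either scale. The match between the scales was fixed in advance, since a change of scaling moves all genes almost alike. Calls on both scalings with the same sign were made in 8 members for season, 8 for cultivar and 10 for stage, where 50.6%, 46.8% and 47.4% of all genes tested were, and 0 members were called in opposite directions. Without the 3 “Riesling” summer libraries labelled E-L 38, the TMM fit called 18 members higher and 1 lower for season, 1 higher and 46 lower for cultivar, and 31 higher and 1 lower for E-L 38 against E-L 35, where 46.8%, 51.3% and 55.6% of all genes tested were called. Of 20170 genes, season called 4545 higher and 4890 lower, cultivar 5110 higher and 5236 lower, and stage 5298 higher and 5919 lower.

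**Figure D5:**
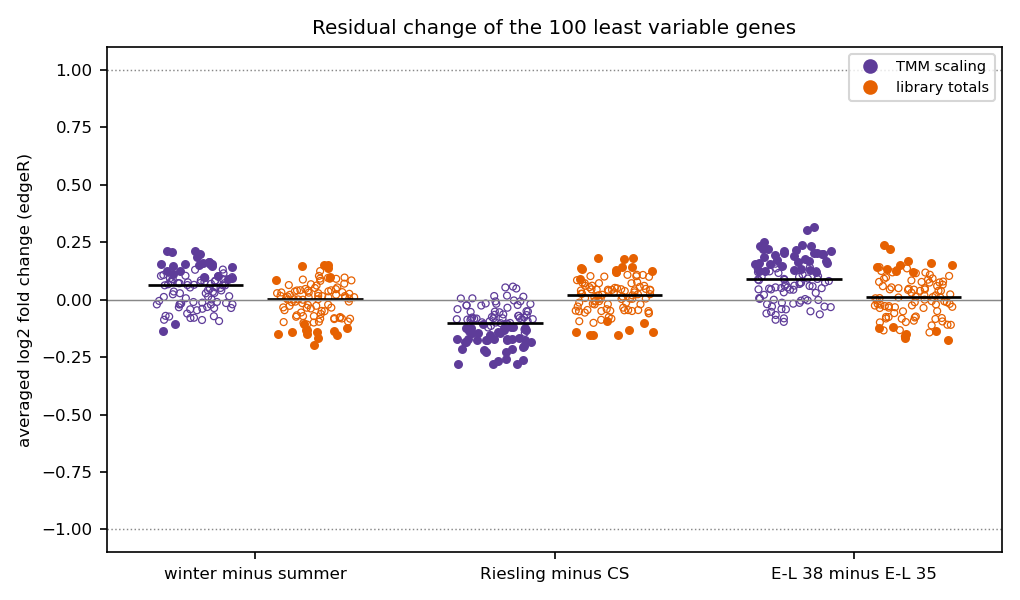
Log2 fold change of each of the 100 genes for winter minus summer, “Riesling” minus “CS” and E-L 38 minus E-L 35, averaged over the pairs of each kind, with TMM (purple) and library totals (orange). Filled points passed an adjusted p of 0.01 (edgeR), bars are medians and dotted lines a 2-fold change, and the purple medians lie at 0.06, -0.10 and 0.09 while the orange ones lie near 0.

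In single pairs of conditions, 6 to 20 members were called between winter and summer berries of the same cultivar and stage, where 19.3% to 49.3% of all genes were, and 6 to 24 between the cultivars, where 23% to 35.8% were. Between stages, 0 to 24 were called, where 4.43% to 49.4% were. The pair with 0 was E-L 38 against E-L 36 in “CS” summer berries in edgeR, in which 12 members had an unadjusted p of at most 0.05, where 24% of all genes did, and DESeq2 and limma each called 1, where they called 6.55% and 4.87%. A member was called in a median of 2 of the 24 pairs, and 27 members in none, against 8.12% of all genes tested. VIT_201s0026g00250, the last but 1 inside the limit, was called in 9, more than any other. It had 38.0, 37.5 and 35.2 FPKM in E-L 38 berries of the “CS” winter crop and 26.3, 27.7 and 28.8 FPKM in its E-L 35 berries, but 29.6, 27.4 and 31.6 FPKM in E-L 38 berries of the “CS” summer crop and 35.4, 35.4 and 35.7 FPKM in its E-L 35 berries. Its stage changes were thus opposite in the 2 crops, interactions held 81.8% of its sum of squares, and none of its season, cultivar or stage averages was called.

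A total of 12 members were called in none of the 3 averages on either scaling and in none of the 24 pairs, as were 4.26% of all genes tested. They included VIT_207s0130g00270 and VIT_218s0001g11700 of the 10 least variable genes. The others were singled out after their values were seen, with mean levels of 10.6 to 25.7 FPKM. VIT_206s0004g02820 on chromosome 6 had 15.4 to 23.2 FPKM and VIT_209s0002g06100 on chromosome 9 had 21.4 to 31.8 FPKM, with SDs of 0.126 each, while VIT_215s0045g00540 reached an SD of 0.153 with 11.1 to 20.7 FPKM. The lack of a call does not show that a gene did not change.

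The season effect differed between the cultivars in 4 members, where 10.5% of all genes tested were called. VIT_211s0118g00660 had the largest difference, 0.35 ± 0.06 for “Riesling” minus “CS” (adjusted p = 0.00029 in edgeR). Its means at E-L 36 were 20.8 FPKM in “Riesling” winter and 20.8 FPKM in “Riesling” summer berries, and 20.1 FPKM in “CS” winter and 26.2 FPKM in “CS” summer berries. The other stages differed from this. At E-L 35 “Riesling” had 21.8, 23.0 and 23.6 FPKM in winter and 20.4, 18.3 and 21.3 in summer. “CS” there had 21.3, 19.8 and 21.2 in winter and 19.5, 21.2 and 20.7 in summer. At E-L 38 “Riesling” had 23.1, 23.9 and 24.4 in winter and 19.7, 21.0 and 17.8 in the summer libraries so labelled. “CS” had 21.1, 22.3 and 22.2 in winter and 23.8, 24.8 and 22.7 in summer. In VIT_202s0025g02440, VIT_212s0028g00830 and VIT_211s0016g05120 the difference was -0.27, -0.27 and -0.23 (adjusted p = 0.0052, 0.00074 and 0.0022 in edgeR). Without the 3 libraries labelled E-L 38 of “Riesling” summer berries, 2 members were called, where 10% of all genes tested were.

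The choice of genes was itself compared across rules. Taking the spread as the coefficient of variation returned 91 of the 100, and a pseudocount of 0.1 or none returned 94 and 93. Scaling to TPM returned 69 and to TMM 37, each a share of both lists since all hold 100 genes. Ranking by the range of the condition means returned 67. With each library left out in turn, 84 to 99 were returned, the fewest without the third replicate of “Riesling” summer berries at E-L 35, and 77 were returned every time, among them all 10 of the least variable. VIT_207s0130g00270 and VIT_214s0128g00400 were the 2 members that each of 13 other rules and subsets of libraries returned.

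Libraries that a choice did not use give a measure of steadiness that is free of it, here for new lists and not for the 100 genes themselves. The lists picked in “CS”, “Riesling”, winter and summer libraries held 36, 33, 35 and 23 of the 100. When 100 genes were picked by the same rule in “CS” libraries alone, their median SD in the “Riesling” libraries was 0.173, against 0.101 where they were picked and 0.340 in the band, and 60 of them were among the lowest 10% of the band there. Picked in “Riesling” and read in “CS”, the median SD was 0.163 against 0.126 where picked and 0.306 in the band, with 52 among the lowest 10%. Picked in winter and read in summer, it was 0.178 against 0.117 and 0.280, with 37 among the lowest 10%. Picked in summer and read in winter, it was 0.216 against 0.102 and 0.351, with 34 among the lowest 10%. The lists of the cultivars shared 18 genes, and those of the seasons shared 5. The median of the picked genes thus lay below that of the band in the libraries not used and above that where they were picked. Single picked genes did not all do so, as the highest SDs read were 0.397 in “Riesling”, 0.377 in “CS”, 0.448 in summer and 0.595 in winter libraries, each above the median of the band. All libraries share vineyard, year and processing.

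Geometric means of several members are given as a description, since the same libraries and scale chose the genes and a mean of several varies less than a single one. The first gene alone had an SD of 0.106 on the scale of log2 FPKM, the geometric mean of the first 3 had 0.063, that of the first 5 had 0.061 and that of the first 10 had 0.057. The geometric mean of all 100 lay between 21.7 and 24.5 FPKM, a ratio of 1.13, with an SD of 0.039. These values are relative to library totals, and on the TMM scale the condition means of the median deviation ran from -0.13 to 0.15. A measure that does not depend on the scaling is the SD of the log2 ratio of 2 members. It was 0.101 to 0.286 over the pairs of members, and lowest between VIT_203s0038g02590 and VIT_209s0002g01490. A member had a mean of 0.170 to 0.225 with the other 99, and the lowest mean was that of VIT_207s0130g00270.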

How the data were processed

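RNA of 36 samples of deseeded berries was sequenced by the authors with single reads of 50 bases and aligned to the grapevine genome 12X V2 with at most 2 mismatches. The processing notes name Bowtie, and the counting program is not given in the sources used here. The deposited files give an expected count per gene, the estimated number of reads without normalization. The FPKM values were computed by the authors from these, and in every library all genes above 20 FPKM lay within 1% of the count over the deposited length less 36 bases and 1 constant. The totals of 8367013 to 28686956 reads set the counting error of each value, which is larger in low genes. A table of the whole series with 36 numbered columns was not used, since the numbers could not be tied to samples. The deposited gene models gave positions, exons and untranslated regions.

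The members and lists were chosen with earlier results of these data known. The spread of a gene is the SD of log2(FPKM + 1), with a pseudocount of 1. Expected counts were rounded, filtered with filterByExpr and fitted in edgeR 4.0.16 in R 4.3.3 with TMM (glmQLFit, glmQLFTest), with 1 coefficient per condition and p-values adjusted after Benjamini and Hochberg over 20183 genes. The SE is the log2 fold change over the square root of F. The alternatives were DESeq2 1.42.0, limma 3.58.1 on log2(FPKM + 1) and log2(FPKM + 0.1), DESeq2 size factors, no filter, a replicate block, leaving out libraries, and, added after the data were seen, library totals in place of TMM. A TMM-scaled FPKM is the expected count over the library total times its TMM factor and over the deposited length less 36 bases. Python 3.11.15 with pandas 2.3.3 was used for the other steps, and the fit and the rule were tested on simulated data.

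The genes named were the 10 with the lowest SD, the 2 with the highest and the 2 with the lowest averaged fold change for season, cultivar and stage, the 2 on each side of the limit, and those with the highest and lowest level and length. Others were chosen after their values were seen. A list of commonly used reference genes could not be matched, as no identifier had a name. Nothing says that replicates came from separate vines, so p-values measure the spread between these samples. Same-numbered libraries of E-L 36 and E-L 35 in “Riesling” summer berries deviated together from their condition means, with a Pearson r of 0.15, 0.10 and 0.25. This was the only one of 24 pairs of conditions with each above 0.1. Single values were larger elsewhere, as 0.31, -0.30 and 0.42 for “Riesling” against “CS” in summer berries at E-L 35. An alternative fit used the replicate number as a block shared by all 36 libraries, which cannot represent a pairing within 1 crop.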

Additional observations from a re-analysis of the deposited data

Results flagged for a closer look

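VIT_211s0016g05120, the sixth least variable gene, was singled out because its season effect differed between the cultivars, by a log2 difference of -0.2279 ± 0.052 SE for “Riesling” minus “CS” (adjusted p = 0.0022 in edgeR). At E-L 38 it had 54.1, 55.0 and 57.3 FPKM in “Riesling” winter berries and 56.7, 59.2 and 65.5 FPKM in the “Riesling” summer libraries labelled E-L 38, and 62.0, 67.7 and 65.1 FPKM in “CS” winter and 55.6, 55.6 and 54.3 FPKM in “CS” summer berries.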

How the results depend on the processing

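Counts of members kept or called are given. Of 100 genes, 37 were kept on TMM-scaled FPKM, 33 and 36 from “Riesling” or “CS” libraries alone, and 35 and 23 from winter or summer libraries alone. In limma on log2(FPKM + 1) and log2(FPKM + 0.1), 16 and 16 members were called for season, 20 and 20 for cultivar and 17 and 16 for stage, where 56.9% and 56.2%, 58.6% and 58.3%, and 53.2% and 52.2% of all genes tested were called, against 25, 43 and 35 in edgeR with TMM, and with library totals in edgeR 19 for cultivar and 16 for stage. The median cultivar change of the members had the opposite sign in these fits, 0.0166 and 0.0172 in limma and 0.0226 with library totals, against -0.10. With each library left out in turn, 84 to 99 genes were kept, 22 to 28 members were called for season, 36 to 46 for cultivar and 31 to 43 for stage (52.1% to 55.1%, 52.9% to 55.4% and 49.8% to 52.3% of all genes tested), and the median SD was 0.167 to 0.178 from “CS” to “Riesling”, 0.153 to 0.167 from “Riesling” to “CS”, 0.208 to 0.224 from summer to winter and 0.168 to 0.183 from winter to summer. The cause of the changes between scalings was not tested beyond the TMM factors.

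With the replicate number as a block shared by all conditions, 26 members were called for season, 47 for cultivar and 33 for stage. Of all genes tested, 55%, 55.4% and 52.7% were. Between E-L 36 and E-L 35 in “Riesling” summer berries, 11 members were called against 10 without the block, where 26.7% were in either fit. The block moved no count of an averaged effect by more than 1.5 times. Counting error alone had a median SD of 0.056 per member on the log2 scale, and it is a part of the SD of each member. The error of the SDs themselves was not computed, so the order among the 100 is to be read with care.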
